A study of Rattus norvegicus with 48 samples.

Results

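Interferon-stimulated genes are the genes that cells switch on after interferons bind their receptors, and 40 of them were followed here in rat lung by gene symbol. Of the 32285 gene identifiers in the tables, 38 carried a symbol on the list, and Oas1b and Xaf1 had no entry. Each of the 38 averaged at least 1 CPM, a count scaled to library size, and was tested in every comparison. The libraries came from pieces of lung of 48 male Sprague-Dawley rats. Exposed rats inhaled fracking sand dust (FSD) at 30 mg/m3 together with diesel exhaust particles (DEP) at 1.0 mg/m3 through the whole body for 6 hours a day on 4 days. Air rats inhaled filtered air on the same schedule. Lungs were taken at day 1, day 7 or day 27, with 8 exposed and 8 air libraries at each time, and no genetic change or other treatment was labelled. The dust and the diesel particles were given together, so their effects cannot be told apart.

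Type I and type III interferons act through receptor-bound Janus kinases on a transcription factor complex that holds STAT2 and IRF9 and binds a DNA element called the interferon-stimulated response element (ISRE). Interferon gamma acts mainly at a different element, the gamma-activated site (GAS). The induced proteins sense viral RNA, block viral entry, translation and release, modify proteins with ISG15, and process peptides for MHC class I. In lung, epithelial cells, macrophages and plasmacytoid dendritic cells are known to make or answer interferons.

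Deposited totals lay between 9445690 and 14400300 counts per library, where 1 count is 0.0694 to 0.106 CPM. Lung epithelial marker genes (5 with an entry) summed to between 22214 and 35235 CPM over all groups. Those of alveolar macrophages (7 with an entry) summed to between 222.5 and 252.4 CPM in exposed day 7 lungs. In air day 7 lungs their sums lay between 228.4 and 304.1 CPM, and in exposed day 27 lungs between 228.4 and 260.7 CPM. Of these 7, Marco alone was at 0 in every exposed and air day 7 library and every exposed day 27 library. A single pair of libraries in each of 4 groups was much closer than the other 164 within-group pairs: exposed day 1 replicates 1 and 4, exposed day 7 replicates 3 and 6, air day 7 replicates 1 and 4, and air day 27 replicates 3 and 6. Their counts differed by 1.44 to 1.67 times counting noise, against at least 2.42 times for the others. Each pair was averaged before any mean ± SD, giving n = 7 in those groups. The labels give each library its own animal, so p-values measure the spread between these libraries.

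The promoters show the elements that interferon signals are known to use, and 28 of the 38 genes were found in the RefSeq promoter table (GRCr8). An ISRE core, searched on both strands as 2 copies of GAAA with any 2 bases between them from 250 bases before to 50 bases after the start, was present in 17 of these 28 (60.7%), against 3.77% of 27457 promoters of the same length. A GAS core, TTCNNNGAA, was present in 7 of 28, against 8.68% of all promoters. The 5 upstream stretches below come from genes that fell, rose or were not called between days in air lungs. Rsad2 and Parp14 fell, Irf1 and Tap1 rose, and Ifit3 was called in no comparison. Each stretch holds the 150 bases before the start, 5′ to 3′ on the gene's strand, with ISRE and GAS cores in capitals. Rsad2, Ifit3 and Tap1 carry the ISRE core on the opposite strand, Parp14 carries a GAS core followed by an ISRE core, and Irf1 carries a GAS core alone. A match is a run of letters and not a measured binding site.
Rsad2, chr6:48788121-48788270, minus strand: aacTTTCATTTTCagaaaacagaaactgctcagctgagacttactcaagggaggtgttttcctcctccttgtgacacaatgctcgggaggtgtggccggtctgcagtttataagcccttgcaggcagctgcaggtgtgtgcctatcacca
Ifit3, chr1:241527176-241527325, plus strand: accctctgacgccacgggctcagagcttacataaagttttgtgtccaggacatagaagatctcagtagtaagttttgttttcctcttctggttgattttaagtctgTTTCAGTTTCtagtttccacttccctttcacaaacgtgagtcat
Parp14, chr11:78407984-78408133, plus strand: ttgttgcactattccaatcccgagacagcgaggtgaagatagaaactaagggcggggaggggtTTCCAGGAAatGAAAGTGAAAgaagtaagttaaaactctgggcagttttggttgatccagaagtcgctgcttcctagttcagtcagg
Tap1, chr20:4668544-4668693, minus strand: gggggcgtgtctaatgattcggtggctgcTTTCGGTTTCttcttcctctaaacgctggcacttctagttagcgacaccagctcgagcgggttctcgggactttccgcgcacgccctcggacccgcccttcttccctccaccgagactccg
Irf1, chr10:38417785-38417934, plus strand: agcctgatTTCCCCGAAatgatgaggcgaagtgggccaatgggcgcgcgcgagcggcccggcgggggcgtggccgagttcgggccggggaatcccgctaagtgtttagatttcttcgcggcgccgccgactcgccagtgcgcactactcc

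Several members are neighbours on GRCr8. Parp9, Dtx3l and Parp14 follow one another on chromosome 11, Psmb8, Tap1 and Psmb9 on chromosome 20, Rsad2 and Cmpk2 on chromosome 6, and Ifit2 and Ifit3 on chromosome 1. Neighbours are therefore not independent observations. Members of the Oas, Oasl, Mx, Ifit and Gbp families resemble each other or copies nearby, and the estimated counts may divide shared reads between them, so values of single members of these families are uncertain.

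Lungs of the same group differed in these genes, and some lungs were high or low for many members at once. Over the 38 members, the mean of log2(CPM + 1) in single libraries ranged from 5.63 to 6.33 in exposed and from 5.73 to 6.39 in air lungs at day 1. At day 7 it ranged from 5.54 to 6.27 in exposed and from 5.67 to 5.97 in air lungs. At day 27 it ranged from 5.71 to 6.09 in exposed and from 5.52 to 6.11 in air lungs. The groups overlapped at every day.

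**Figure D1:**
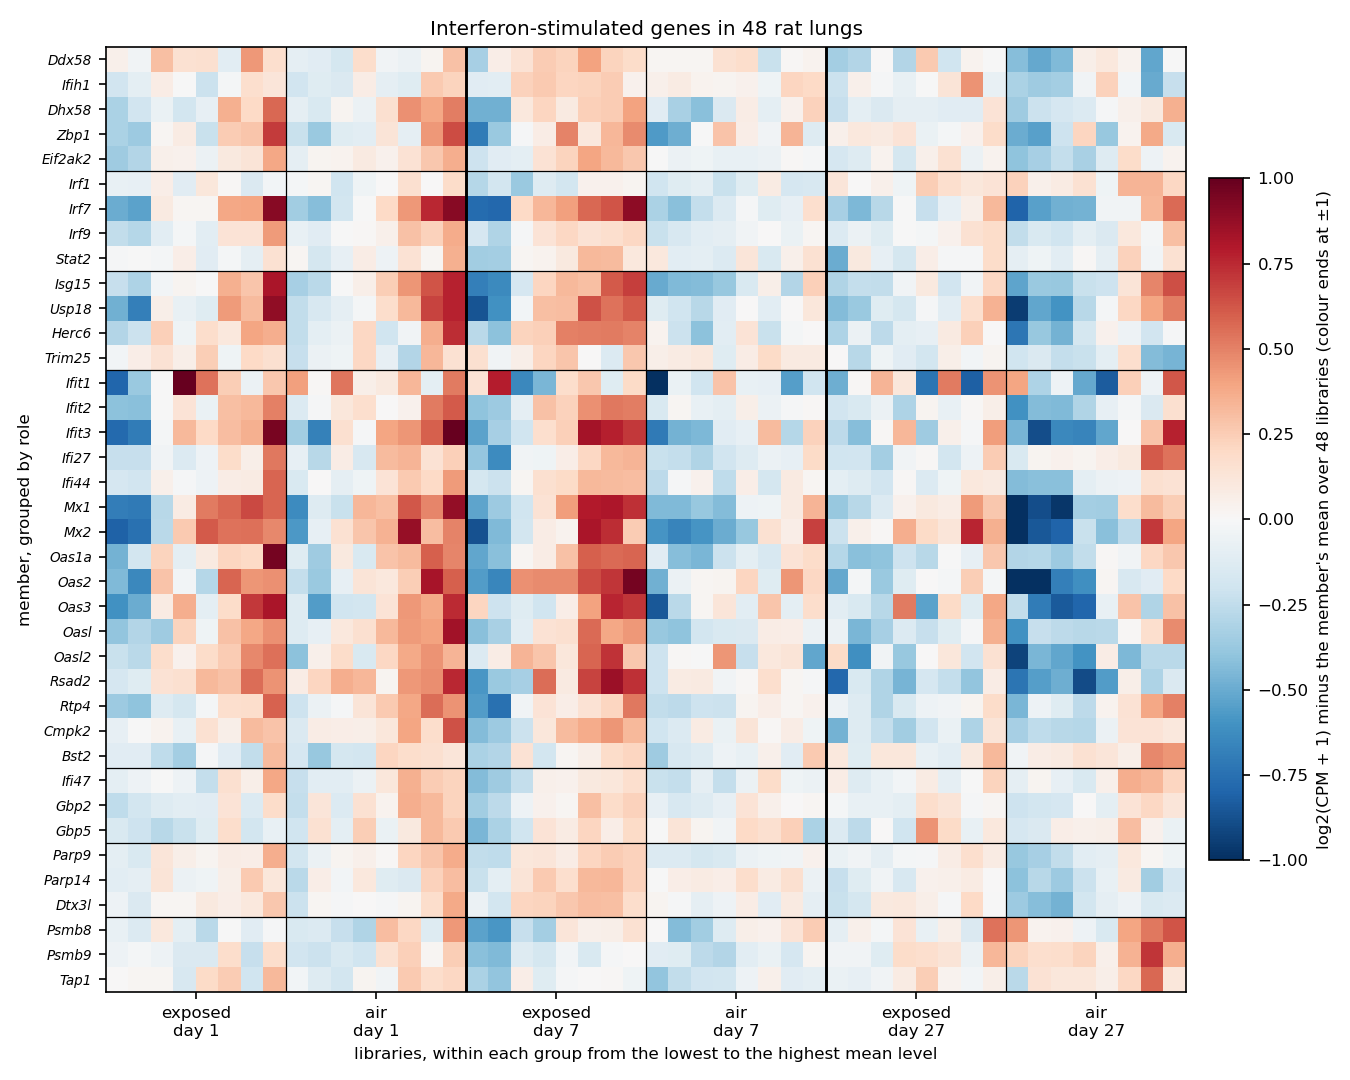
Heatmap of 38 interferon-stimulated genes (rows, grouped by role) in 48 lungs (columns). Colour is log2(CPM + 1) minus the gene's mean over all libraries, and libraries run from the lowest to the highest mean level within each group; whole columns of exposed day 7 are blue or red, with a mean level between 5.54 and 6.27.

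Among exposed day 7 lungs, replicates 1 and 2 were the low end. Replicate 1 was among the lowest 2 of its group for 36 of 38 members and replicate 2 for 35 of 38. Replicates 3, 5 and 6 were the high end, with mean levels of 6.25, 6.27 and 6.27. Of these, replicates 3 and 6 are the close pair, which differed by 1.51 times counting noise. In the other groups, exposed day 1 replicate 8 and air day 1 replicate 7 were each the highest library for 24 of 38 members, exposed day 27 replicate 2 for 19, and air day 27 replicate 5 was the lowest for 22.

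As mean ± SD of the mean level, exposed lungs had 5.99 ± 0.21 (n = 7) and air lungs 6.02 ± 0.23 (n = 8) at day 1. At day 7 exposed lungs had 5.95 ± 0.30 (n = 7) and air lungs 5.85 ± 0.11 (n = 7), and at day 27 exposed lungs had 5.87 ± 0.12 (n = 8) and air lungs 5.82 ± 0.23 (n = 7). At each day the groups differed by less than the larger of their SDs. In whole lung, fewer cells of a type and less RNA per cell cannot be told apart.

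**Figure D2:**
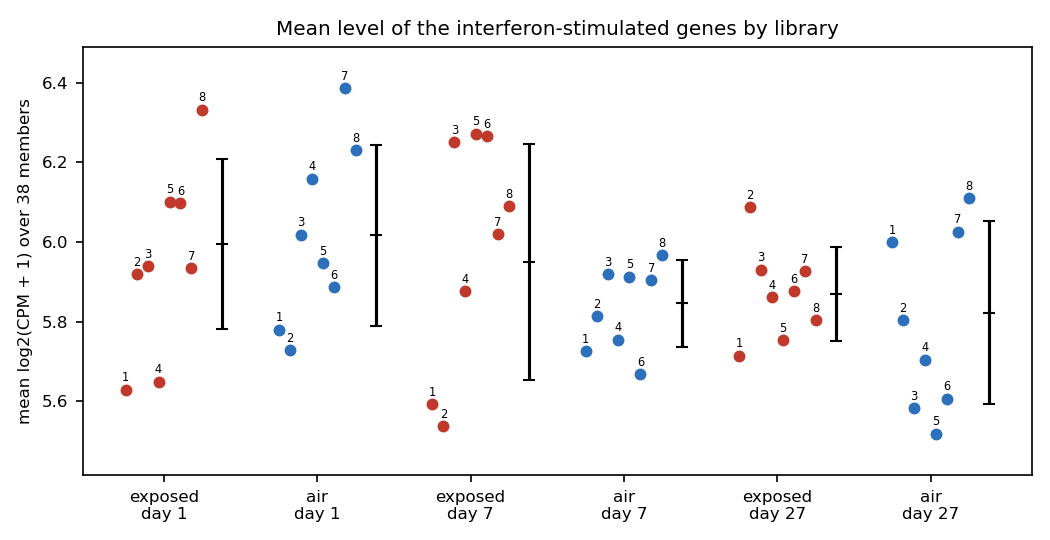
Mean log2(CPM + 1) over 38 members in each library (points, numbered by replicate; exposed red, air blue), with mean ± SD beside each group. Exposed day 7 libraries spread from 5.54 to 6.27, and air day 7 libraries lie between 5.67 and 5.97.

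At day 1 no member passed the test between exposed and air lungs. The edgeR quasi-likelihood test with Benjamini-Hochberg adjustment over 14314 genes called 0 of 38 members, against 0.0279% of all genes, and DESeq2 and limma-voom also called 0. Without adjustment, 2 members had p under 0.05, both lower, against 8.67% of all genes in either direction. Fold changes were above 0 for 8 members and below 0 for 30, with a median log2 fold change of -0.07, against 50.9% of all genes above 0. With the closest pair of exposed libraries summed into 1, 25 members were below 0 and the median was -0.02.

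The 2 were guanylate-binding proteins, GTPases that interferon gamma induces strongly and that attack vacuoles of intracellular pathogens. Gbp5 had 59.6, 64.4 and 82.1 CPM as lowest, median and highest in exposed lungs, against 63.1, 79.0 and 90.8 CPM in air lungs (log2 fold change -0.23 ± 0.08 SE, edgeR adjusted p = 0.406). Gbp2 had 131, 144 and 177 CPM in exposed lungs, against 132, 172 and 201 CPM in air lungs (-0.18 ± 0.08, edgeR adjusted p = 0.555). The ranges of both genes overlapped between the groups.

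Ddx58, which encodes the RNA sensor RIG-I, had the largest positive value at day 1. It had 33.6, 40.5 and 49.5 CPM in exposed and 31.9, 35.1 and 44.6 CPM in air lungs (log2 fold change 0.15 ± 0.08, edgeR adjusted p = 0.627). Oasl, an oligoadenylate synthetase-like protein, had 11.6, 16.7 and 21.8 CPM in exposed and 14.2, 18.7 and 28.7 CPM in air lungs (-0.22 ± 0.16, edgeR adjusted p = 0.735). Rtp4, a Golgi chaperone for receptors, stood at -0.20 ± 0.14 on the log2 scale and Trim25, the ubiquitin ligase that activates RIG-I, at 0.10 ± 0.08 (edgeR adjusted p = 0.736 and 0.769).

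At day 7 most members had values above 0 in exposed lungs, but none passed the test. Fold changes were above 0 for 35 of 38 members, with a median of 0.16, against 49.7% of 14259 genes above 0 and a median over all genes of -0.0008. With close pairs summed the median over the members was 0.13. edgeR called 0 of 38 members and 0% of all genes, and DESeq2 and limma-voom also called 0 members. Without adjustment, 8 members had p under 0.05, all higher (21.1%), against 4.32% of all genes higher. Many members were high or low together in the same lungs, so these counts are not independent observations.

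**Figure D3:**
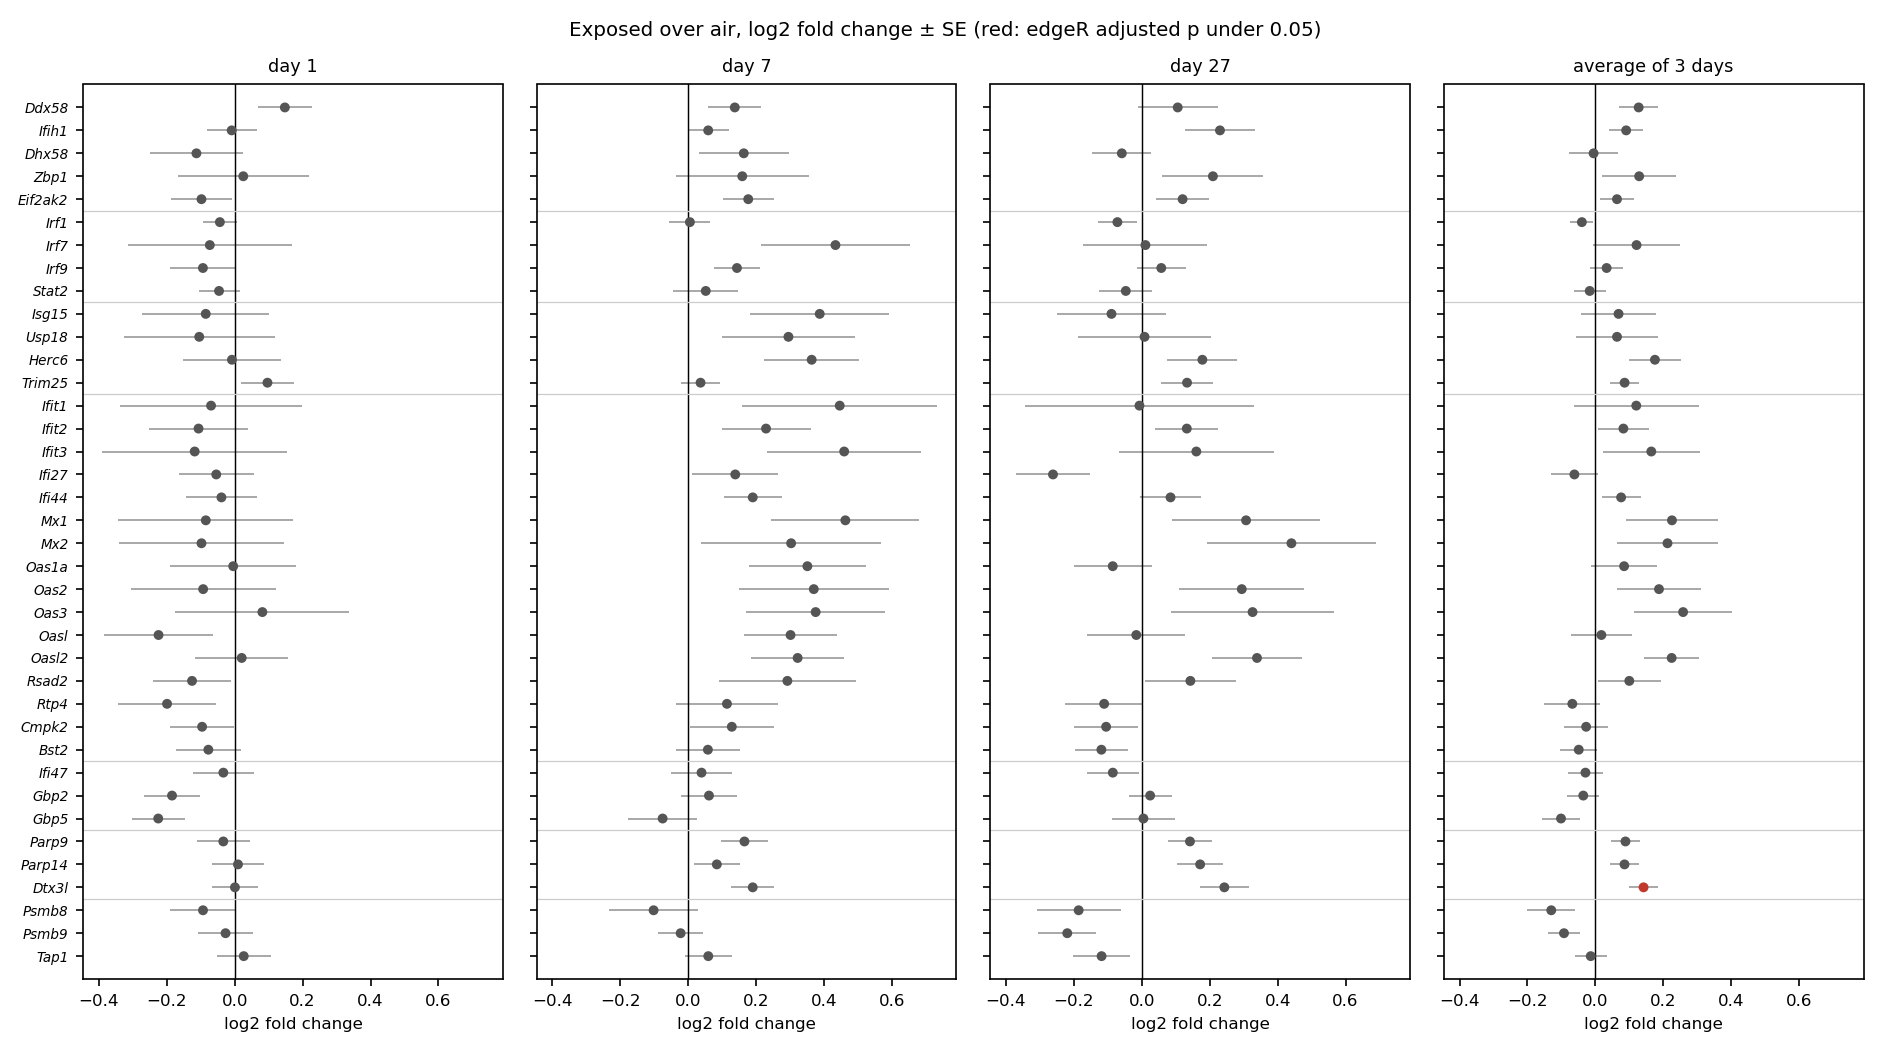
Log2 fold change of exposed over air lungs (points) ± SE (lines) for 38 members at each day and as the average over days; red marks an edgeR adjusted p under 0.05. At day 7, 35 of 38 points lie above 0, and the single red point is Dtx3l in the average.

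Antiviral effectors held most of the larger day 7 values, and all 16 were above 0 with a median of 0.30. Mx1, a dynamin-like GTPase that traps viral nucleocapsids, had 64.9, 115 and 165 CPM in exposed lungs, against 68.8, 81.4 and 119 CPM in air lungs (0.46 ± 0.22, edgeR adjusted p = 0.591). Oas1a, an oligoadenylate synthetase that activates RNase L, had 17.4, 29.1 and 39.1 CPM in exposed lungs, against 18.3, 23.0 and 29.0 CPM in air lungs (0.35 ± 0.17, edgeR adjusted p = 0.598). For both, the lowest exposed library lay below every air library and the highest above every one. Ifit1, which binds viral RNA lacking a methylated cap, was scarce, with 1.05, 2.56 and 4.50 CPM in exposed and 0.544, 1.90 and 2.90 CPM in air lungs (0.45 ± 0.29, edgeR adjusted p = 0.686).

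The regulators and the ISG15 system were also above 0 at day 7. Irf7, the factor that amplifies type I interferon production, had 53.7, 121 and 174 CPM in exposed lungs, against 69.4, 85.1 and 105 CPM in air lungs (0.43 ± 0.22, edgeR adjusted p = 0.609). Isg15, a ubiquitin-like modifier, had 23.7, 46.3 and 62.9 CPM in exposed lungs, against 26.9, 30.4 and 45.7 CPM in air lungs (0.39 ± 0.21, edgeR adjusted p = 0.626). Stat2, a subunit of the ISRE-binding complex, was close to level, with 109, 146 and 175 CPM in exposed and 126, 137 and 155 CPM in air lungs (0.05 ± 0.10, edgeR adjusted p = 0.922). For Irf7 and Isg15 the medians stood further apart than for Stat2, and in all 3 the exposed libraries reached both below and above the air libraries.

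The smallest p at day 7 belonged to Dtx3l, a ubiquitin ligase that works with the ADP-ribosyltransferase Parp9. Dtx3l had 85.6, 113 and 121 CPM in exposed lungs, against 89.7, 95.3 and 104 CPM in air lungs (0.19 ± 0.06, edgeR adjusted p = 0.462). Parp9 had 88.3, 114 and 126 CPM in exposed lungs, against 93.4, 98.5 and 109 CPM in air lungs (0.17 ± 0.07, edgeR adjusted p = 0.548). The exposed medians of both lay above the highest air library, but their ranges overlapped through the low exposed libraries.

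Herc6, in mouse the main ligase for ISG15, had 73.7, 128 and 142 CPM in exposed lungs, against 73.9, 94.4 and 108 CPM in air lungs (0.36 ± 0.14, edgeR adjusted p = 0.511). Eif2ak2 encodes PKR, the kinase that stops translation on sensing double-stranded RNA, and had 97.0, 127 and 147 CPM in exposed lungs, against 106, 108 and 113 CPM in air lungs (0.18 ± 0.07, edgeR adjusted p = 0.548). Its air libraries lay close together, with exposed libraries on both sides of them. Oasl2 and Ifi44 had log2 fold changes of 0.32 ± 0.14 and 0.19 ± 0.09 (edgeR adjusted p = 0.559 and 0.577). The 3 members below 0 were the immunoproteasome subunits Psmb8 (-0.10) and Psmb9 (-0.02) and the GTPase Gbp5 (-0.08). Neutrophil marker genes, 7 of 8 above 0 and 0 called, summed to 141, 275.5 and 430 CPM in exposed lungs, against 112, 202 and 279.2 CPM in air lungs, and their part in these values was not tested.

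At day 7 the exposed lungs also differed more from one another than the air lungs did. The SD of log2(CPM + 1) over the 8 libraries of a group was larger in exposed than in air lungs for 37 of 38 members, with Oasl2 (0.28 against 0.29) the exception, whereas 52.1% of all genes had the larger SD in exposed lungs. The median ratio of the SDs, exposed over air, was 1.89 over the members and 1.02 over all genes. With close pairs averaged the count was again 37 and the ratio 1.85, and leaving out any 1 library gave 34 to 38 members. Air lungs were also less spread at day 7 than at the other days. With close pairs averaged, the SD of their mean level was 0.11 at day 7, against 0.23 at day 1 and at day 27. In exposed lungs it was 0.30 at day 7, 0.21 at day 1 and 0.12 at day 27. Many members were high or low together in the same lungs, so these counts of members are not independent observations.

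**Figure D4:**
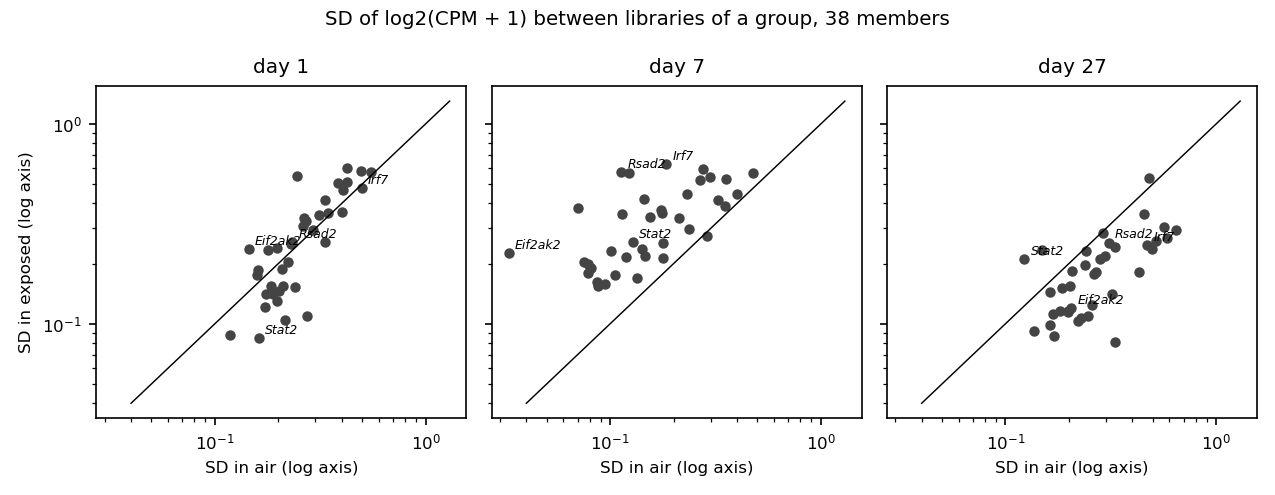
SD of log2(CPM + 1) between the libraries of the exposed group (vertical) and of the air group (horizontal) for 38 members at each day, both log axes; the line marks equal SDs. At day 7, 37 of 38 points lie above the line, and at day 27, 35 of 38 lie below it.

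Rsad2 encodes viperin, a radical SAM enzyme that makes a chain-terminating nucleotide against viral polymerases, and it stood apart most in the test of spread. It had 20.9, 40.5 and 58.2 CPM in exposed day 7 lungs, against 27.3, 32.1 and 35.8 CPM in air day 7 lungs, and SDs of 0.57 and 0.11. Exposed lungs thus lay on both sides of a narrow air range. A limma test on the square root of absolute deviations from the group mean gave an adjusted p of 0.0104 over 14259 genes, and Rsad2 was 1 of 38 members called, against 0.0491% of all genes. That call was not stable. The same test on the deviations without the square root, which was run first, called 0 members (limma adjusted p = 0.0561 for Rsad2), and averaging the close pairs also ended the call (limma adjusted p = 0.0952).

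Unadjusted, 16 of 38 members had p under 0.05 with a larger spread in exposed day 7 lungs and 0 with a smaller one, against 3.65% of all genes with a larger one. The members were high or low in the same few lungs, so the 16 are not independent observations. Ifit2, an RNA-binding inhibitor of translation, had SDs of 0.38 in exposed and 0.07 in air lungs (limma adjusted p = 0.0548). Eif2ak2 had 0.23 and 0.03 (limma adjusted p = 0.0864), and Usp18, the protease that removes ISG15 and damps interferon receptor signalling, had 0.57 in exposed and 0.12 in air lungs (limma adjusted p = 0.114). At day 1 the SDs in exposed and air lungs were 0.34 and 0.27 for Ifit2 and 0.24 and 0.14 for Eif2ak2. For Usp18 they were 0.50 and 0.38, and for Rsad2 0.26 and 0.23. These 4 genes, Rsad2 included, were singled out after their values were seen.

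At day 27 the larger spread was mostly in air lungs. The SD was larger in exposed lungs for 3 of 38 members (Ifit1, Gbp5 and Stat2) and larger in air lungs for 35, whereas 60.6% of all genes had the larger SD in air lungs. The median ratio of the SDs was 0.65 over the members and 0.89 over all genes. The limma test of spread called 0 members at day 27 (0.0423% of genes), and 11 had an unadjusted p under 0.05, each with a smaller spread in exposed lungs, against 5.28% of all genes. At day 1 the SD was larger in exposed lungs for 21 of 38 members, against 46.8% of all genes, and the test called 0 (0.0489% of genes), with 2 members at an unadjusted p under 0.05. At these days too, some lungs were high or low for many members at once, so the counts of members are not independent observations. Whether the ratio of SDs differed between days was not tested.

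At day 27 the members lay on both sides of 0, with 23 above and 15 below and a median of 0.04, against 48% of 14192 genes above 0. edgeR called 0 of 38 members, against 5.52% of all genes, limma-voom called 0 and DESeq2 called 1, Dtx3l, against 14.4% of the genes DESeq2 tested. Without adjustment, 7 members had p under 0.05, with 5 higher and 2 lower (18.4%), against 26.7% of all genes.

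The 3 ADP-ribosylation members, neighbours on chromosome 11, were all above 0 at day 27. Dtx3l had 83.0, 99.3 and 112 CPM in exposed lungs, against 69.8, 86.4 and 94.1 CPM in air lungs (0.24 ± 0.07, edgeR adjusted p = 0.0512). Its exposed median lay above the highest air library, although the ranges overlapped. Parp14, a mono-ADP-ribosyltransferase, had 177, 205 and 220 CPM in exposed lungs, against 156, 175 and 221 CPM in air lungs (0.17 ± 0.07, edgeR adjusted p = 0.117), and Parp9 stood at 0.14 ± 0.06 on the log2 scale (edgeR adjusted p = 0.167). Dtx3l was called when exposed replicate 2, air replicate 1, air replicate 2 or air replicate 4 was left out, and also under other size factors, DESeq2 and the fit of all libraries (edgeR adjusted p = 0.0205 in that fit).

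The 3 antigen-processing members, neighbours on chromosome 20, were all below 0 at day 27. Psmb9, an immunoproteasome subunit, had 67.7, 76.1 and 92.6 CPM in exposed lungs, against 76.1, 86.0 and 121 CPM in air lungs (-0.22 ± 0.08, edgeR adjusted p = 0.115). Psmb8, its partner subunit, and Tap1, which carries peptides into the endoplasmic reticulum, had log2 fold changes of -0.19 ± 0.12 and -0.12 ± 0.08 (edgeR adjusted p = 0.343 and 0.371). B and plasma cell marker genes were lower at the same time, with 2 of 7 called and 7 of 7 below 0. Of all genes, edgeR called 3.33% lower at day 27. The 7 B and plasma cell genes summed to 80.4, 89.8 and 127 CPM in exposed lungs, against 92.8, 134 and 240 CPM in air lungs. The highest air sums, 234 and 240 CPM, were in the close pair, replicates 3 and 6. Other air libraries reached at most 168 CPM. Lymph node or thymus markers (3 of 3 tested below 0, 1 called) summed to 109, 163 and 183 CPM in exposed lungs, against 167, 195 and 226 CPM in air lungs. Alveolar macrophage markers were below 0 for 6 of 6 tested (2 called) and T cell markers for 7 of 8 (0 called). The 7 alveolar macrophage markers with an entry summed to 228.4, 249.8 and 260.7 CPM in exposed lungs, against 220.5, 255.7 and 392.7 CPM in air lungs. Their highest air sums, 380.2 and 392.7 CPM, were also in replicates 3 and 6, with other air libraries at 273.1 CPM or below. With close pairs summed, the number of all genes called at day 27 fell from 783 to 31. Monocyte and interstitial macrophage markers, 2 of 8 below 0, summed to 14602, 15659 and 18015 CPM in exposed lungs, against 16268, 19387 and 21505 CPM in air lungs, a sum made up mostly of Lyz2, the lysozyme gene, which was the 1 called lower. The part of these cell types in the antigen-processing values was not tested.

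Among effectors at day 27, Oasl2 had 46.2, 70.5 and 81.6 CPM in exposed lungs, against 36.9, 51.8 and 74.9 CPM in air lungs (0.34 ± 0.13, edgeR adjusted p = 0.119). Ifi27, a mitochondrial and nuclear-envelope protein, had 294.1, 344 and 446 CPM in exposed lungs, against 335, 388 and 570 CPM in air lungs (-0.26 ± 0.11, edgeR adjusted p = 0.139). The groups overlapped for both genes.

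Isg15 and Irf7 were near level at day 27. Isg15 had 31.2, 35.6 and 44.6 CPM in exposed lungs, against 26.4, 33.1 and 60.8 CPM in air lungs, and Irf7 had 68.0, 83.6 and 117 CPM in exposed lungs, against 53.1, 79.0 and 139 CPM in air lungs. For both, the exposed libraries sat inside the air range. Mx1 had 72.0, 98.0 and 126 CPM in exposed lungs, against 42.0, 73.9 and 118 CPM in air lungs, with overlapping ranges and a log2 fold change of 0.31 ± 0.22. The values were -0.09 ± 0.16 for Isg15, 0.01 ± 0.18 for Irf7, -0.09 ± 0.12 for Oas1a, -0.05 ± 0.08 for Stat2 and -0.01 ± 0.34 for Ifit1, and these 6 had edgeR adjusted p from 0.378 (Mx1) to 0.993 (Ifit1).

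Averaged over the 3 days in a fit of all 48 libraries, Dtx3l was the single member called, and it was higher in exposed lungs. Its log2 fold change was 0.14 ± 0.04 (edgeR adjusted p = 0.0308), so 1 of 38 members (2.63%) was called, against 6.88% of 14852 genes. The value was 0.0008 ± 0.07 at day 1, 0.19 ± 0.06 at day 7 and 0.24 ± 0.07 at day 27. With close pairs summed the call was lost (0.13, edgeR adjusted p = 0.0673). Next came Oasl2 with 0.23 ± 0.08 (edgeR adjusted p = 0.0761), Herc6 with 0.18 ± 0.08 (0.142, edgeR adjusted) and Ddx58 with 0.13 ± 0.06 (0.145, edgeR adjusted). In all, 25 members were above 0, against 47.6% of all genes.

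No member's response was shown to differ between days. The differences between the fold changes of 2 days called 0 of 38 members for day 7 over day 1, day 27 over day 1 and day 27 over day 7, against 0%, 0.498% and 0.0202% of 14852 genes, and DESeq2 and limma-voom called 0 members in each. Unadjusted, 3, 1 and 1 members had p under 0.05 in those comparisons, against 7.5%, 14.6% and 14.9% of all genes. Oasl had the smallest p for day 7 over day 1, with a difference of 0.53 ± 0.22 in log2 fold change (edgeR adjusted p = 0.586). Dtx3l had it for day 27 over day 1 (0.24 ± 0.10, edgeR adjusted p = 0.245) and Ifi27 for day 27 over day 7 (-0.40 ± 0.17, edgeR adjusted p = 0.265).

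The ligands that could drive these genes were barely counted. Of 8 interferon genes with an entry, Ifna2, Ifna4, Ifna5 and Ifnl3 were at 0 in all 48 libraries, and none of the 8 passed the filter on low counts. Ifng, which encodes interferon gamma, reached at most 0.357 CPM in exposed and 0.0936 CPM in air lungs at day 7, and at most 0.474 CPM in any library, an air lung at day 27. Ifnb1 reached 0.0693 CPM in a single group, air lungs at day 7, which is about 1 count. At this depth differences in the ligands were not detectable.

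Receptors, kinases, sensors, inhibitors and further induced genes made a second list of 68 tested genes, of which 0 were called at day 1, day 7 or day 27, against the shares of all genes given above. Unadjusted edgeR p values under 0.05 numbered 5, 8 and 25 at the 3 days (7.35%, 11.8% and 36.8%), against 8.67%, 8.47% and 26.7% of all genes. limma-voom also called 0 at each day and DESeq2 called 0 at day 1 and day 7, but DESeq2 called 7 at day 27, with Ifitm1, Ifnar2, Irf3, Jak2, Mavs, Psmb10 and Tdrd7 as its calls, 3 of them higher. That is 11.5% of the 61 list genes to which DESeq2 gave an adjusted p, against 14.4% of the genes DESeq2 tested. Of 37 further interferon-induced genes, 8 were above 0 at day 1, 33 at day 7 and 14 at day 27, with medians of -0.05, 0.07 and -0.09. Among them, Adar, an RNA-editing enzyme, stood at 0.12 ± 0.04 on the log2 scale at day 7 (edgeR adjusted p = 0.466). Ifitm1, which blocks fusion of viral envelopes, had -0.31 ± 0.09 at day 27 (edgeR adjusted p = 0.0503).

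Upstream of them, Tlr7, the endosomal sensor of single-stranded RNA, had the smallest p of the sensors at day 1 (0.35 ± 0.09, edgeR adjusted p = 0.265). Irf5, a factor downstream of Toll-like receptors, had 0.27 ± 0.08 at day 1 (edgeR adjusted p = 0.345). At day 27 Jak2, a kinase of the interferon gamma receptor, had 0.16 ± 0.05 and Mavs, the mitochondrial adaptor of RIG-I, -0.18 ± 0.06 (edgeR adjusted p = 0.0575 and 0.0591). The receptor chain Ifnar2 had 0.12 ± 0.04 at day 27 (edgeR adjusted p = 0.0800).

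In air lungs the levels of some members changed with day, as those of many other genes did. The fit of all libraries called 0 of 38 members for day 7 over day 1 (8.32% of 14852 genes), 12 for day 27 over day 7 (39.7% of genes) and 10 for day 27 over day 1 (17.6% of genes). For day 7 over day 1, DESeq2 called 1 (Oasl; 10.9% of the genes DESeq2 tested), limma-voom 0, and 10 members had an unadjusted p under 0.05, all lower, against 12.4% of all genes lower. Over the members, the called shares were 31.6% and 26.3% in the later 2 comparisons, so for day 27 over day 7 members were called no more often than genes in general. Day, age, and the preparation of each day's libraries cannot be told apart here.

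**Figure D5:**
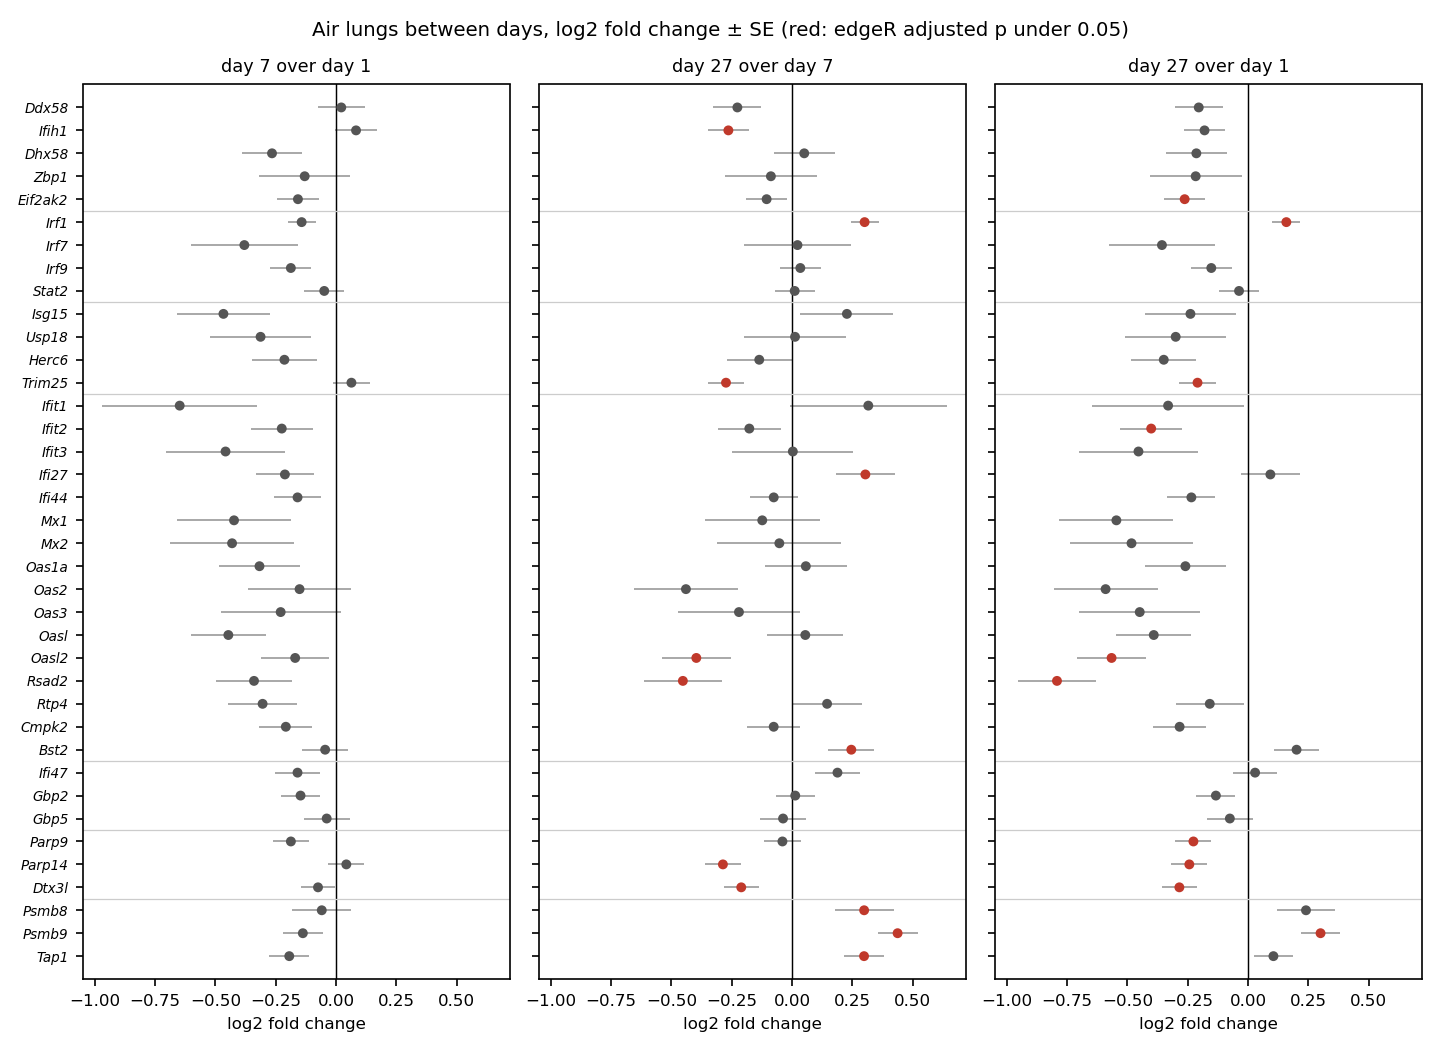
Log2 fold change (points) ± SE (lines) of 38 members between days in air lungs; red marks an edgeR adjusted p under 0.05. In day 27 over day 7, Psmb8, Psmb9 and Tap1 lie above 0 and Parp14 and Dtx3l below it.

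Antigen-processing genes and Irf1 rose in air lungs at day 27 relative to day 7, among 6 of 38 members called higher (15.8%, against 20% of all genes) and 6 of 38 lower (15.8%, against 19.7%). Psmb9 had medians of 70.3, 67.8 and 86.0 CPM in air lungs at day 1, day 7 and day 27 (day 27 over day 7 0.44 ± 0.08, edgeR adjusted p = 6.46e-05). Irf1, the factor that interferon gamma induces through its GAS element, had medians of 116, 105 and 131 CPM (0.30 ± 0.06, edgeR adjusted p = 8.33e-05). Tap1 rose by 0.30 ± 0.08, Psmb8 by 0.30 ± 0.12, Ifi27 by 0.30 ± 0.12 and Bst2, the tether that holds budding virions on the cell, by 0.25 ± 0.09 (edgeR adjusted p from 0.00371 to 0.0477). With close pairs summed, Psmb8, Ifi27 and Bst2 were not called.

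Parp14, Dtx3l and the sensor Ifih1 were among the 6 members that fell over the same interval, whereas the other 4 sensors and Parp9 were not called. Parp14 had medians of 211, 219 and 175 CPM at day 1, day 7 and day 27 (day 27 over day 7 -0.29 ± 0.07, edgeR adjusted p = 0.00218). Rsad2 had medians of 40.7, 32.1 and 21.8 CPM, with -0.45 ± 0.16 for day 27 over day 7 and -0.79 ± 0.16 for day 27 over day 1 (edgeR adjusted p = 0.0240 and 0.000477). Oasl2 (-0.40 ± 0.14), Trim25 (-0.27 ± 0.08), Ifih1, the RNA sensor MDA5 (-0.26 ± 0.09), and Dtx3l (-0.21 ± 0.07) made up the 6 that fell (edgeR adjusted p from 0.00371 to 0.0237 in these 4).

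Relative to day 1, 8 members were lower (8.45% of all genes) and 2 higher (9.15%) in air lungs at day 27. Dtx3l had medians of 98.1, 95.3 and 86.4 CPM at day 1, day 7 and day 27 (day 27 over day 1 -0.28 ± 0.07, edgeR adjusted p = 0.00410). Oasl2, Ifit2, Eif2ak2, Parp14, Parp9, Trim25 and Rsad2 also fell, and Psmb9 (0.30 ± 0.08) and Irf1 (0.16 ± 0.06) rose. Trim25 and Irf1 were near the threshold (edgeR adjusted p = 0.0477 and 0.0495) and were not called by limma-voom. With close pairs summed, Parp9, Trim25 and Irf1 were not called. Of the 6 members that rose from day 7 in air, 4 hold an ISRE core and 3 a GAS core in the promoter window, and of the 6 that fell, 5 hold an ISRE core and 1 a GAS core. Among all 28 members with a promoter, 17 hold an ISRE core and 7 a GAS core. Whether the cores bear on the direction was not tested.

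Cell type markers moved with the same days in air lungs. For day 27 over day 7, 5 of 8 T cell markers, 5 of 7 B and plasma cell markers, 3 of 5 lymph node or thymus markers and 3 of 5 lung epithelial markers were called higher, against 20% of all genes. All 3 red blood cell markers were called lower, against 19.7% of all genes. Monocyte and interstitial macrophage markers had 2 of 8 called higher and 1 lower, and their sum, mostly Lyz2, reached 16268, 19387 and 21505 CPM at day 27, set against 12140, 12614 and 14339 CPM at day 7, with no overlap. Summed B and plasma cell markers reached 92.8, 134 and 240 CPM at day 27, set against 74.7, 87.0 and 111 CPM at day 7. The highest day 27 sums, 234 and 240 CPM, were in the close pair, replicates 3 and 6. Their part in the changes of the interferon-stimulated genes was not tested.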

How the data were processed

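Lung RNA was sequenced, and the authors deposited estimated counts per gene, not normalized, in 1 table for each day. Tools listed in the submitters' processing notes, without their roles, are Salmon 1.10.1, STAR 2.6.1d, Trim Galore 0.6.7, cutadapt 3.4 and bcl2fastq 2.19, with the build Rnor_6.0. The deposited estimated counts were rounded to whole numbers. On average 5.58% of a library's deposited values were not whole. CPM is TMM-scaled over 48 libraries. edgeR 4.0.16 (R 4.3.3) fitted quasi-likelihood models after filterByExpr, per day with 16 libraries, or over all 48 for the average and for differences between days, with Benjamini-Hochberg adjustment over all genes and a threshold of 0.05. SE is the log2 fold change divided by the root of F. limma 3.58.1 and DESeq2 1.42.0 were alternatives, as were other size factors, filters, the close pairs summed and each library left out. The scripts were tested on simulated data. In those, the first test of spread (absolute deviations) recovered few changed genes, and the square root was then taken, after the first test's result was known.

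The members, the other lists and the comparisons were chosen with earlier results of these data known. Named are called members, the 6 smallest p per day, the 4 smallest per contrast, and Isg15, Ifit1, Mx1, Oas1a, Irf7 and Stat2; at most 2 per role are named from the other pathway genes. Genes discussed for their spread were chosen after seeing their values. Counting error alone sets the floor, and libraries of about 12004550 counts (median) limit genes such as Ifit1 and the interferons.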

Additional observations from a re-analysis of the deposited data

Results flagged for a closer look

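Over the 78 groups of values examined for a single library far from the rest of its group, 3 stood out. That is no more than the share of about 1 in 20 that chance alone gives. In exposed day 1 lungs, replicate 6 had 82.1 CPM of Gbp5, with the next library at 68.7 CPM, and replicate 8 had 50.2 CPM of Oas1a, with the next at 29.8 CPM. In air day 27 lungs, replicate 7 had 121 CPM of Psmb9, with the next at 95.0 CPM. The cause of these values was not tested.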

How the results depend on the processing

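The median log2 fold change over the members kept its sign at each day under every alternative except without single libraries at day 1, where it ran from -0.14 to 0.0004. The day 27 median ran from 0.02 to 0.12 without single libraries, the highest without air replicate 8. All genes called numbered 4 at day 1, and 2 with no filter, 46 with DESeq2, 14 with all 48 libraries in one fit, 0 with close pairs summed and 0 to 17 without single libraries. At day 7 (0 called) DESeq2 gave 26, the fit of all libraries 1, and leaving out libraries 0 to 11. At day 27 (783 called) no filter gave 474, DESeq2 1654, the fit of all libraries 2227, close pairs summed 31, and leaving out libraries 9 to 1926. Members called at day 27 were 1 with RLE size factors, DESeq2 and the fit of all libraries, and 0 to 3 without single libraries, with Ifih1 and Oasl2 added without air replicate 2 and Parp14 without air replicate 1. Members called on average were 0 with close pairs summed, 2 with DESeq2 (Oasl2, adjusted p = 0.0394) and 1 to 2 without single libraries, and 1 by DESeq2 for air day 7 over day 1. Members with the larger SD in exposed lungs ran from 12 to 24 at day 1 and from 3 to 6 at day 27 without single libraries. The test of spread at day 7 called 1 member, 0 without the square root, 0 with close pairs averaged (smallest adjusted p = 0.0607) and 1 to 4 without single libraries; Rsad2 was not called without exposed replicate 3, 5 or 6. Signs turned with close pairs summed for Ifit1 (0.0248), Mx1 (0.0031) and Oas1a (0.0495) at day 1, Stat2 at day 7 (-0.0058) and Irf7 at day 27 (-0.0371), and with DESeq2 for Ifit1 at day 27 (0.0030). Without single libraries, day 1 values ran from -0.21 to 0.0107 (Isg15), -0.30 to 0.0616 (Ifit1), -0.18 to 0.0281 (Mx1), -0.17 to 0.0695 (Oas1a), -0.22 to 0.0542 (Irf7) and -0.0748 to 0.0053 (Stat2). Day 27 values ran from -0.15 to 0.0351 (Isg15), -0.14 to 0.17 (Ifit1), -0.0655 to 0.14 (Irf7) and -0.0830 to 0.0087 (Stat2). No paired analysis was possible because the labels give each animal its own number. The causes were not tested. Depth limits Ifit1, Oas3 and Zbp1, the members with the fewest counts.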
